A study of Schizosaccharomyces pombe with 8 samples.

Results

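The 31 genes described here encode the subunits of RNA polymerases I, II and III of the fission yeast Schizosaccharomyces pombe. They were chosen by name from the 5165 genes measured, as every gene called rpa, rpb or rpc with a number, together with nuc1 and ker1. Of these, 7 encode subunits found only in RNA polymerase I (Pol I), 7 only in Pol II, 10 only in Pol III, 2 in both Pol I and Pol III, and 5 in all 3 enzymes. This gave 14 measured subunits for Pol I, 12 for Pol II and 17 for Pol III. The annotation of the reference genome described all 31 as RNA polymerase subunits, and placed the 2 shared genes in Pol I and Pol III. It named no enzyme for the 5 placed in all 3, so that placing does not rest on it.

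Pol I makes the large ribosomal RNA precursor, Pol II makes messenger RNA, and Pol III makes transfer RNA and the small 5S ribosomal RNA. The enzymes share a common core, built around the largest and the second-largest subunit and held together by an assembly dimer, to which each adds a stalk and its own peripheral subunits. In yeasts, messenger RNAs for making ribosomes, Pol I and Pol III subunits among them, are known to be repressed together during stress.

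Poly(A)-selected RNA was sequenced from the wild-type strain 972 (WT) and from Δtop1, strain RF14, in which the gene for DNA topoisomerase 1 is deleted. Cells of each strain were grown in rich medium and either treated with 1 mM H2O2 for 30 min or left untreated. The groups were treated Δtop1, treated WT, untreated Δtop1 and untreated WT, with 2 biological replicates each. The series addressed how the loss of topoisomerase 1 changes gene expression under oxidative stress. Topoisomerase 1 relaxes the supercoils that transcription builds up in DNA, and each genotype was represented by 1 strain.

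The 8 libraries held between 16090015 and 19899720 reads on genes. top1 itself gave between 244 and 309 normalized reads in the Δtop1 libraries, against 1967 to 2513 in the WT libraries, and so went with every strain label. Values are normalized reads, that is reads per gene after the authors' scaling between libraries, so each is relative to the messenger RNA of its library, and fewer cells with a transcript cannot be told apart from less of it per cell. All 31 genes were above the minimum mean of 10 normalized reads that 5019 genes passed, and their values ran between 218 and 9795. A gene is called changed at an adjusted p under 0.1 with limma (Benjamini-Hochberg over all 5019 genes, two-sided), and an error is the standard error (SE) of a log2 change, n = 2 per group. The spread behind these p-values and SEs was that between the 2 cultures of a group, pooled over all 4 groups and moderated across genes. It is not the spread of the 2 groups compared alone. An exact permutation test of 2 against 2 cannot go below 0.333.

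The DNA around the starts of the 31 genes was searched for 4 short motifs, and none was shared by most of the genes. Motifs were searched on both strands, from 250 bases before to 50 after each annotated gene start. They were GATGAG, the core of a motif named in budding yeast for Pol I and Pol III genes, CAGTCACA, the HomolD box of fission yeast ribosomal protein genes, AAAATTTT, which lies inside a budding yeast element of ribosome biogenesis genes, and TGACGT, the core of the site bound by the stress factor Atf1. GATGAG was found at 4 of the 31 genes (12.9%), rpa12, rpb11, rpc11 and rpc34, against 8.56% of 5128 windows. AAAATTTT was found at 5 (16.1%), nuc1, rpa2, rpb1, rpc11 and rpb5, against 7.80%. CAGTCACA was found at rpa49 alone, 1 of 31 (3.23%) against 2.67%, and TGACGT at rpc10 alone, 1 of 31 (3.23%) against 5.97%. The sequences below are from the genome assembly ASM294v3 and read 5′ to 3′ on the strand of the gene, with the motif in capitals. The rpa12 and rpb11 stretches are shown because both hold GATGAG, and the nuc1 and rpb1 stretches because both hold AAAATTTT. With the authors' scaling, rpa12 and nuc1 were called lower after H2O2 and rpb11 and rpb1 were not. With libraries set to the same total, rpb11 was called lower in both strains and rpb1 in WT. The rpa49 site is shown as the only CAGTCACA match. It is read as the reverse complement of the HomolD box, at chrI:3927322-3927351 on the minus strand, and starts 61 bases before the gene.
rpa49: ttcgcagcctcTGTGACTGtacactacact
The rpa12 stretch, chrIII:1039877-1039976 on the plus strand, holds the reverse complement of GATGAG 177 bases before the gene, and the rpb11 stretch, chrI:1433761-1433860 on the plus strand, holds GATGAG itself 119 bases before the gene.
rpa12: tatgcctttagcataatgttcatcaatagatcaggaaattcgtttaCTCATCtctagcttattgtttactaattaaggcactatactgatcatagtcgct
rpb11: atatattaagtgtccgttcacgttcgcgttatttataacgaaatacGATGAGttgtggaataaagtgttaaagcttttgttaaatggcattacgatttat
AAAATTTT starts 126 bases before nuc1, in chrII:3127661-3127760 on the plus strand, and 236 bases before rpb1, in chrII:1590893-1590922 on the plus strand.
nuc1: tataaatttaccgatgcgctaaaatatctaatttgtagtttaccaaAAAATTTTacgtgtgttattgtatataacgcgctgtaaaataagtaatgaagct
rpb1: atttccattaaAAAATTTTggagtactata
A match is a description of letters in a window, and none of the 4 motifs was found at more than 5 of the 31 genes.

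After 30 min of H2O2, messenger RNAs for most subunits of Pol I and Pol III were lower in both strains, including those shared with Pol II. Those for subunits found only in Pol II stayed close to the median of all genes, and so came apart from the rest. In Δtop1, 23 of the 31 genes were called lower (background 34.9% of all genes tested) and 1 was called higher (background 35.9%). In WT, 23 were called lower (background 35.6%) and 1 higher (background 36.4%). Of the genes called lower, 22 were the same in both strains, with rpc53 called in Δtop1 alone and rpc17 in WT alone. At least a 2-fold fall was seen for 10 genes in Δtop1 (background 10.8%) and for 8 in WT (background 11.3%), or for 16 in Δtop1 (15.2% of all genes) and 17 in WT (21.2%) with every library set to the same total. Under that scaling 28 genes were called lower in Δtop1 (45.8% of all genes, with 26.9% higher) and 30 in WT (56.2%, with 21.3% higher), and none of the 31 was called higher.

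By enzyme, all 7 genes of Pol I alone were called lower in both strains, with a median log2 change of -1.33 in Δtop1 and -1.05 in WT. Of the 10 genes of Pol III alone, 9 were called lower in each strain, with a median of -0.88 in Δtop1 and -0.89 in WT. Both genes shared by Pol I and Pol III fell in both strains (median -1.45 in Δtop1 and -1.05 in WT), and so did all 5 genes shared by the 3 enzymes (median -0.68 in Δtop1 and -0.52 in WT). None of the 7 genes of Pol II alone was called lower, and their median was -0.01 in Δtop1 and 0.09 in WT, beside a median of 0.00 over all genes in both strains. Setting every library to the same total moved the median of all genes to -0.20 in Δtop1 and -0.37 in WT. The Pol II median moved with it, to -0.21 in Δtop1 and -0.28 in WT. Such a scaling shifts all genes of a library alike, so it cannot test the place of the Pol II genes beside the typical gene. With the same quantiles, the Pol II median was -0.14 in Δtop1 and -0.15 in WT, beside -0.08 and -0.09 over all genes. Calls of the Pol II genes moved too: with the same total, 4 of the 7 were called lower in Δtop1 (rpb3, rpb7, rpb9 and rpb11) and 6 in WT, all but rpb2, none past 2-fold. All other medians were below 0 under every scaling tried.

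**Figure D1:**
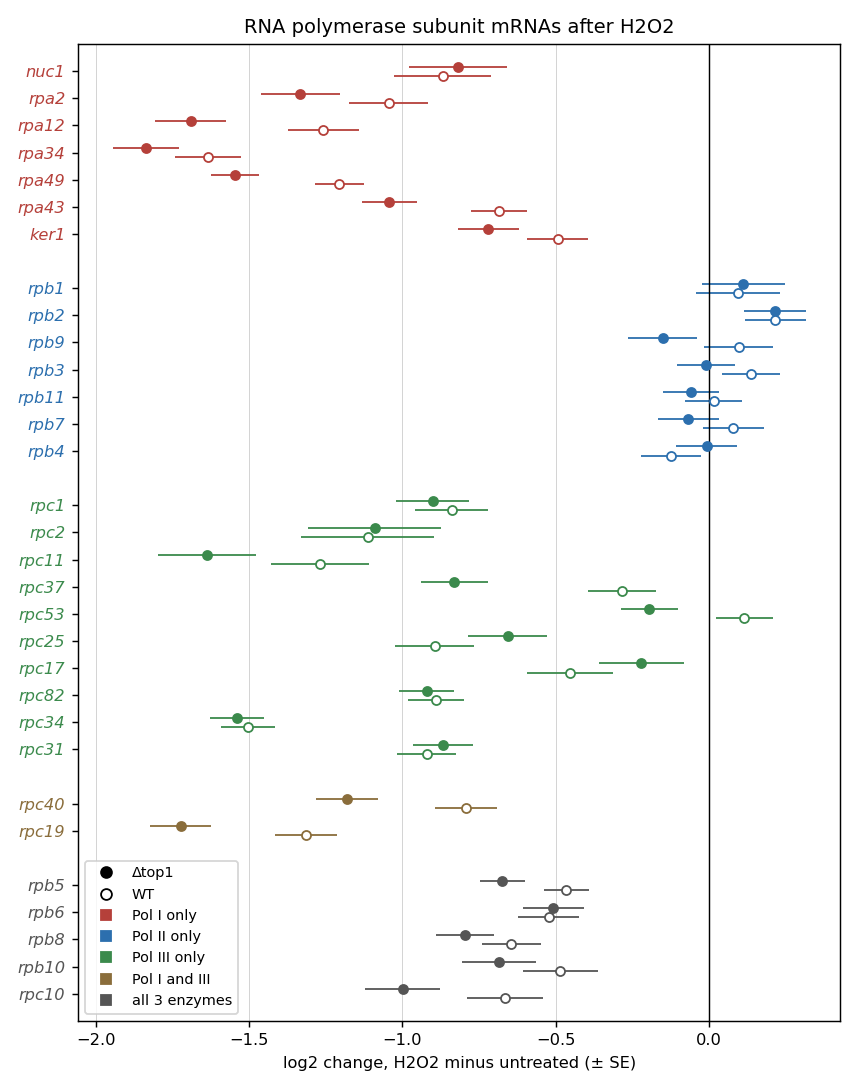
Log2 change after H2O2 (x axis, treated minus untreated, with its SE, n = 2 libraries per group) of each of the 31 subunit genes (rows, coloured by the enzyme they belong to), filled points for Δtop1 and open points for WT. Pol II genes lie between -0.15 and 0.22 on the deposited scale, where none is called lower (4 are in Δtop1 and 6 in WT when libraries are set to the same total), while Pol I genes lie between -1.84 and -0.49.

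A difference between enzymes within 1 library does not depend on how that library was scaled. The mean log2 value over the 7 Pol I genes minus that over the 7 Pol II genes was -0.75 and -0.82 in the treated Δtop1 libraries, against 0.51 and 0.50 in untreated Δtop1. In treated WT it was -0.65 and -0.62, against 0.51 and 0.43 in untreated WT. The treated and untreated libraries did not overlap, and Pol I genes lost 1.29 log2 units relative to Pol II genes in Δtop1 and 1.10 in WT. For the 10 Pol III genes, the same difference was -1.65 and -1.73 in treated Δtop1, against -0.79 and -0.82 in untreated Δtop1. It was -1.68 and -1.74 in treated WT, against -0.77 and -0.89 in untreated WT. Pol III genes thus lost 0.89 log2 units relative to Pol II genes in Δtop1 and 0.88 in WT, and the genes shared by all 3 enzymes lost 0.74 in Δtop1 and 0.63 in WT.

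**Figure D2:**
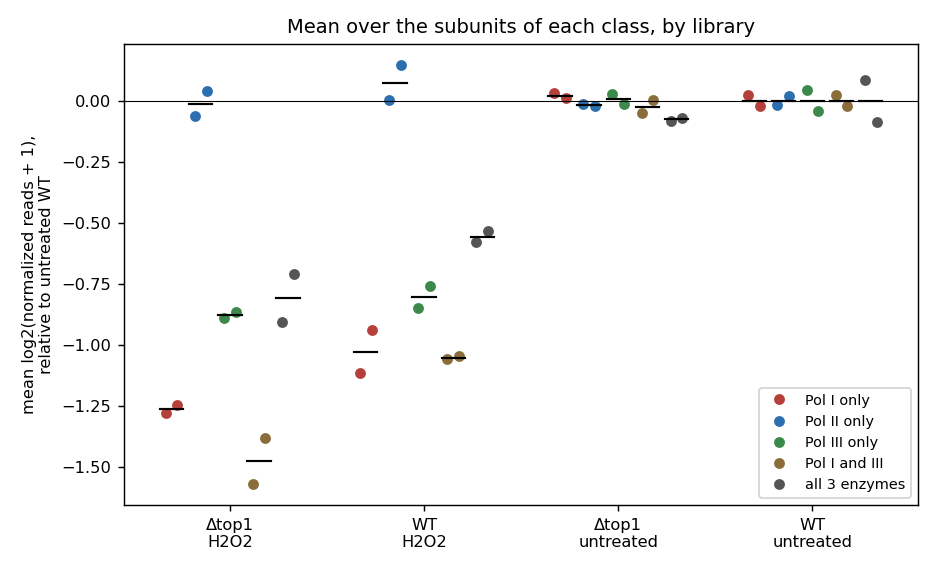
Mean of log2(normalized reads + 1) over the genes of each class in each library (points, 2 per group; bars, group means), relative to the mean of the untreated WT libraries. Pol II genes stay within 0.15 of the untreated WT mean in all 8 libraries on the deposited scale (their median change after H2O2 falls below 0 when libraries are set to the same total), while all other classes are lower in all 4 treated libraries.

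The largest subunit of each enzyme carries most of the active site. nuc1, the largest subunit of Pol I, gave 3378 and 3812 normalized reads in treated Δtop1, against 6208 and 6454 in untreated Δtop1. In treated WT it gave 2440 and 3345, against 4688 and 5810 in untreated WT. Treated libraries were lower than untreated ones in each strain, with a log2 change of -0.82 ± 0.16 in Δtop1 (adjusted p = 0.002) and -0.87 ± 0.16 in WT (adjusted p = 0.00141). For rpb1, the largest subunit of Pol II, whose C-terminal repeats bind processing factors, the values were 9138 and 9591 in treated Δtop1, against 8958 and 8371 in untreated Δtop1. Values in treated WT were 7848 and 9795, against 7427 and 9087 in untreated WT. The WT groups overlapped, and neither change passed the test (0.11 ± 0.14 in Δtop1, adjusted p = 0.489, and 0.09 ± 0.14 in WT, adjusted p = 0.566). With libraries set to the same quantiles, rpb1 was called lower in WT instead, at -0.43. rpc1, the largest subunit of Pol III, gave 1394 and 1356 in treated Δtop1, against 2677 and 2466 in untreated Δtop1. In WT it gave 1042 and 1284 after treatment, against 1928 and 2224 before it. Its fall, -0.90 ± 0.12 in Δtop1 (adjusted p = 0.000207) and -0.84 ± 0.12 in WT (adjusted p = 0.00031), was of the size of that of nuc1.

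The second-largest subunits, which close the active site from the other side, followed the same pattern. rpa2 of Pol I gave 2986 and 3253 in treated Δtop1 against 7882 and 7832 in untreated Δtop1, and 3004 and 3723 in treated WT against 6280 and 7584 in untreated WT. Treated and untreated libraries lay far apart in each strain, with changes of -1.33 ± 0.13 in Δtop1 (adjusted p = 3.29e-05) and -1.05 ± 0.13 in WT (adjusted p = 0.000139). rpb2 of Pol II was the only gene of the 31 called higher. It gave 6535 and 6862 in treated Δtop1 against 5736 and 5799 in untreated Δtop1, and 5883 and 6620 in treated WT against 5025 and 5742 in untreated WT. The groups did not overlap in either strain, but the changes were small, 0.22 ± 0.10 in each strain (adjusted p = 0.0886 in Δtop1 and 0.0866 in WT), with unadjusted p of 0.0618 and 0.0609. The call was lost with edgeR and with DESeq2 on the recovered reads, and the direction turned to -0.32 in WT and -0.19 in Δtop1 with libraries set to the same quantiles. rpc2 of Pol III gave 972 and 1335 in treated Δtop1 against 2532 and 2328 in untreated Δtop1, and 800 and 1236 in treated WT against 1951 and 2376 in untreated WT. Its replicates differed more than those of rpa2, and it fell by 1.09 ± 0.22 in Δtop1 (adjusted p = 0.00224) and by 1.11 ± 0.22 in WT (adjusted p = 0.00195).

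**Figure D3:**
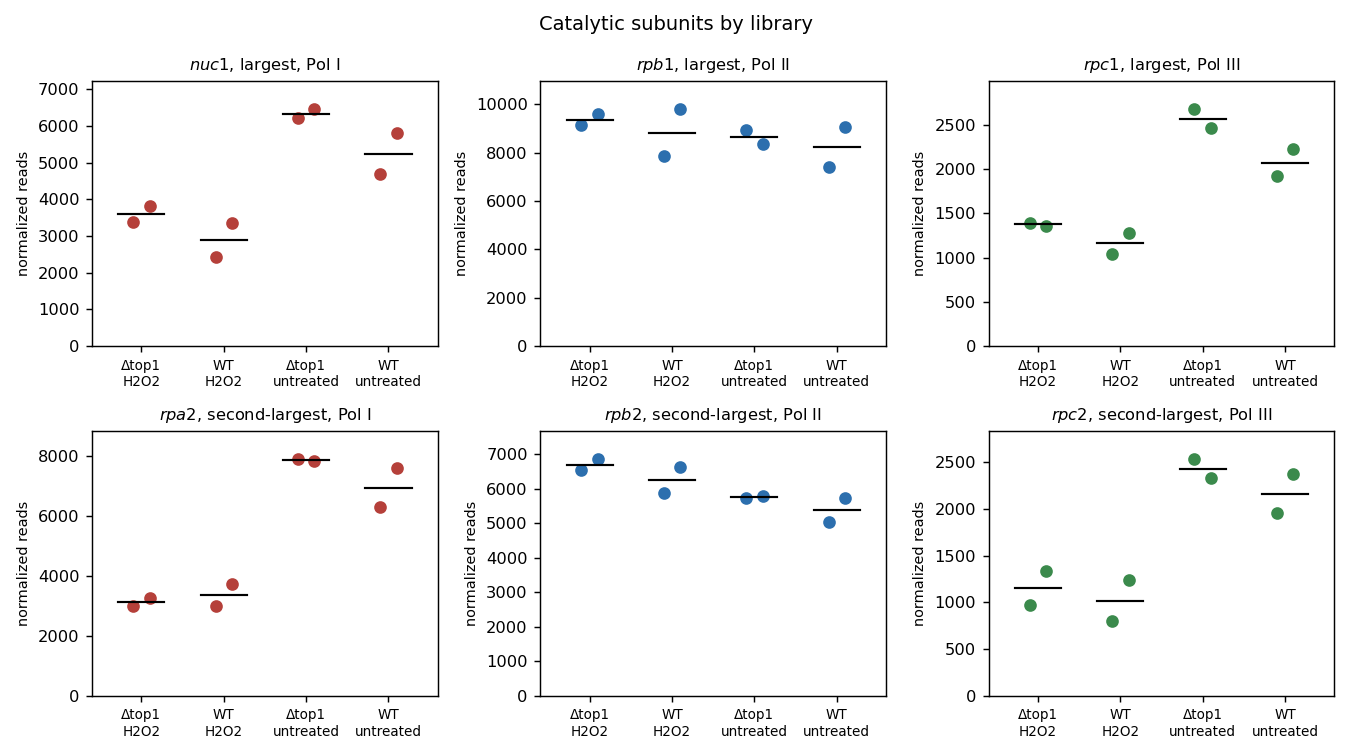
Normalized reads (y axis, from 0, each panel with its own scale) of the largest (top row) and second-largest (bottom row) subunit gene of Pol I, Pol II and Pol III in each library (points) with the group mean (bar). The treated libraries lie below the untreated ones of the same strain for nuc1, rpc1, rpa2 and rpc2, and overlap with them or lie above them for rpb1 and rpb2.

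Levels of these genes can be set side by side only per length of transcript. In treated WT, nuc1 averaged 539 normalized reads per kb of annotated transcript, rpb1 1662 and rpc1 255. In untreated WT the averages were 978 for nuc1, 1556 for rpb1 and 455 for rpc1. The level of rpb1 was thus above that of nuc1 in both conditions, and that of rpc1 was the lowest. Among the second-largest subunits, treated WT had 869 normalized reads per kb for rpa2, 1684 for rpb2 and 286 for rpc2, and untreated WT had 1791 for rpa2, 1450 for rpb2 and 607 for rpc2. Treated Δtop1 had 806 for rpa2 and 1805 for rpb2, against 2030 for rpa2 and 1554 for rpb2 in untreated Δtop1. The order of rpa2 and rpb2 therefore differed between conditions in both strains, with rpb2 above rpa2 in treated cells and rpa2 above rpb2 in untreated cells, and within each group the libraries of the pair did not overlap.

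The assembly dimer that starts the building of each enzyme is made of rpc40 and rpc19 in Pol I and Pol III, and of rpb3 and rpb11 in Pol II. rpc19 gave 425 and 473 normalized reads in treated Δtop1 against 1491 and 1473 in untreated Δtop1, and 587 and 555 in treated WT against 1516 and 1333 in untreated WT. It fell by 1.72 ± 0.10 on the log2 scale in Δtop1 (adjusted p = 1.69e-06) and fell by 1.31 ± 0.10 in WT (adjusted p = 9.12e-06). rpc40 gave 1716 and 2005 in treated Δtop1 against 4023 and 4394 in untreated Δtop1, and 2527 and 2718 in treated WT against 4390 and 4690 in untreated WT. Its change was -1.18 ± 0.10 in Δtop1 (adjusted p = 1.59e-05) and -0.79 ± 0.10 in WT (adjusted p = 0.000171). rpb11 was the Pol II gene that moved least in WT. It gave 1715 and 1677 in treated Δtop1 against 1798 and 1736 in untreated Δtop1, and 1675 and 1952 in treated WT against 1836 and 1743 in untreated WT, with overlap in WT and changes of -0.06 ± 0.09 in Δtop1 and 0.02 ± 0.09 in WT. rpb3 changed by -0.01 ± 0.09 in Δtop1 and 0.14 ± 0.09 in WT, and neither of the Pol II dimer genes passed the test in either strain. Set to the same total, rpb11 was called lower in WT at -0.36 and rpb3 at -0.23, both close to the shift of all genes.

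The 5 subunits common to all 3 enzymes had a smaller median fall in both strains than the genes of Pol I alone and of Pol III alone. They were rpb5, rpb6, rpb8, rpb10 and rpc10, small proteins at the surface and base of the core. Their changes lay between -0.999 and -0.51 in Δtop1 and between -0.67 and -0.47 in WT, and all passed the test in both strains. rpc10 had the largest fall, with 630 and 792 normalized reads in treated Δtop1 against 1415 and 1410 in untreated Δtop1, and 882 and 954 in treated WT against 1551 and 1365 in untreated WT. Its treated libraries were below the untreated ones in each strain, at -0.999 ± 0.12 in Δtop1 (adjusted p = 0.000141) and -0.67 ± 0.12 in WT (adjusted p = 0.00143). rpb5 changed least in WT, with 1774 and 1753 in treated WT against 2501 and 2371 in untreated WT, and 1400 and 1436 in treated Δtop1 against 2270 and 2256 in untreated Δtop1. Its replicates lay close together, and it fell by 0.67 ± 0.07 in Δtop1 (adjusted p = 7.02e-05) and by 0.47 ± 0.07 in WT (adjusted p = 0.000597). rpb6 changed least in Δtop1, at -0.51 ± 0.10 (adjusted p = 0.00196), and gave 2424 and 2906 in treated Δtop1 against 3743 and 3807 in untreated Δtop1.

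Each enzyme has a zinc-ribbon subunit that acts in cleavage of the nascent RNA or in termination, and these were rpa12, rpb9 and rpc11. rpa12 gave 572 and 586 normalized reads in treated Δtop1 against 2004 and 1747 in untreated Δtop1, and 752 and 870 in treated WT against 2092 and 1791 in untreated WT. It fell by 1.69 ± 0.12 in Δtop1 (adjusted p = 4.45e-06), to 31.0% of the untreated level, and by 1.26 ± 0.12 in WT (adjusted p = 2.78e-05). rpc11 of Pol III, the gene with the fewest reads of the 31, gave 259 and 218 in treated Δtop1 against 732 and 750 in untreated Δtop1, and 323 and 302 in treated WT against 885 and 643 in untreated WT. It fell by 1.64 ± 0.16 in Δtop1 (adjusted p = 3.53e-05) and by 1.27 ± 0.16 in WT (adjusted p = 0.000158). rpb9 of Pol II gave 528 and 618 in treated Δtop1 against 659 and 610 in untreated Δtop1, and 676 and 712 in treated WT against 612 and 688 in untreated WT. Its groups overlapped in both strains, and the changes of -0.15 ± 0.11 in Δtop1 (adjusted p = 0.268) and 0.10 ± 0.11 in WT (adjusted p = 0.475) did not pass. rpb9 overlaps mid2 on the same strand in the annotation, so some of its reads could be assigned to either gene.

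Pol I and Pol III carry built-in subunit pairs that resemble the Pol II factor TFIIF, rpa49 with rpa34 in Pol I and rpc53 with rpc37 in Pol III, and the falls were larger for the Pol I pair. rpa34 had the largest fall of the 31 genes in each strain. It gave 489 and 411 normalized reads in treated Δtop1 against 1654 and 1554 in untreated Δtop1, and 524 and 539 in treated WT against 1738 and 1570 in untreated WT. It changed by -1.84 ± 0.11 in Δtop1 (adjusted p = 1.82e-06) and by -1.63 ± 0.11 in WT (adjusted p = 4.17e-06), falls of 3.57-fold and 3.11-fold. rpa49 gave 1342 and 1344 in treated Δtop1 against 3955 and 3892 in untreated Δtop1, and 1617 and 1773 in treated WT against 3999 and 3815 in untreated WT. With an SE of 0.08, it fell by 1.55 in Δtop1 (adjusted p = 9.2e-07) and by 1.21 in WT (adjusted p = 3.96e-06). The Pol III pair moved less than most other Pol III genes. rpc53 gave 1114 and 1133 in treated Δtop1 against 1331 and 1240 in untreated Δtop1, and 1464 and 1268 in treated WT against 1251 and 1264 in untreated WT. Both treated libraries were below the untreated ones in Δtop1 and above them in WT, with changes of -0.19 ± 0.09 in Δtop1 (adjusted p = 0.0982, unadjusted p = 0.0695) and 0.12 ± 0.09 in WT (adjusted p = 0.301), where it was not called. Set to the same total, rpc53 was called lower in WT, at -0.26. rpc37 gave 402 and 476 in treated Δtop1 against 807 and 751 in untreated Δtop1, and 657 and 715 in treated WT against 849 and 819 in untreated WT. It fell by 0.83 ± 0.11 in Δtop1 (adjusted p = 0.000222) and by 0.28 ± 0.11 in WT (adjusted p = 0.0488).

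The stalk of each enzyme, where the nascent RNA leaves, is made of rpa43 and ker1 in Pol I, rpb7 and rpb4 in Pol II, and rpc25 and rpc17 in Pol III. rpa43 gave 1144 and 1248 normalized reads in treated Δtop1 against 2411 and 2514 in untreated Δtop1, and 1577 and 1562 in treated WT against 2690 and 2365 in untreated WT. It fell by 1.04 ± 0.09 in Δtop1 (adjusted p = 1.79e-05) and by 0.68 ± 0.09 in WT (adjusted p = 0.000217). ker1, its partner, had the smallest fall of the Pol I genes. It gave 1092 and 1096 in treated Δtop1 against 1771 and 1835 in untreated Δtop1, and 1419 and 1521 in treated WT against 2264 and 1889 in untreated WT, with changes of -0.72 ± 0.10 in Δtop1 (adjusted p = 0.000288) and -0.49 ± 0.10 in WT (adjusted p = 0.0024). rpc25 fell in both strains (-0.66 ± 0.13 in Δtop1 and -0.89 ± 0.13 in WT), although it overlaps hmt2 on the same strand, and rpc17 passed in WT alone (-0.45 ± 0.14, adjusted p = 0.0196), with -0.22 ± 0.14 in Δtop1 (adjusted p = 0.198). The 2 stalk genes of Pol II did not pass in either strain. rpb4 was the Pol II gene with the smallest change in Δtop1, with 1347 and 1436 in treated Δtop1 against 1343 and 1456 in untreated Δtop1, and rpb7 changed by -0.07 ± 0.10 in Δtop1 and 0.08 ± 0.10 in WT. Set to the same total, rpb7 was called lower in WT at -0.29.

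Pol III alone has a trimer of rpc82, rpc34 and rpc31 that works in the opening of its promoters. rpc34 gave 522 and 480 normalized reads in treated Δtop1 against 1507 and 1410 in untreated Δtop1, and 529 and 515 in treated WT against 1514 and 1451 in untreated WT. Its treated libraries were close together in both strains, and it changed by -1.54 ± 0.09 in Δtop1 (adjusted p = 1.64e-06) and by -1.503 ± 0.09 in WT (adjusted p = 2.21e-06), the largest fall of a Pol III gene in WT. rpc82 fell by 0.92 ± 0.09 in Δtop1 and by 0.89 ± 0.09 in WT, and rpc31 fell by 0.87 ± 0.10 in Δtop1 and by 0.92 ± 0.10 in WT. All 6 of these changes passed the test.

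Without H2O2, none of the 31 genes was called different between Δtop1 and WT with limma, edgeR or DESeq2 (background 0.618% of all genes tested in either direction with limma). At an unadjusted p under 0.05 there was 1 of the 31 with each tool (against 269 of all 5019 genes with limma). With limma it was rpc1, with 2677 and 2466 normalized reads in untreated Δtop1 against 1928 and 2224 in untreated WT, a log2 change of 0.31 ± 0.12 (unadjusted p = 0.0294, adjusted p = 0.867). nuc1 had the next highest, 0.28 ± 0.16, and all others lay between -0.20 and 0.19. The medians by enzyme were -0.03 for Pol I, -0.02 for Pol II, -0.03 for Pol III and -0.11 for the genes shared by all 3 enzymes.

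With H2O2, 12 of the 31 genes were called lower in Δtop1 than in WT (background 14.7%) and none higher (background 17.1%). At an unadjusted p under 0.05 with limma, 14 of the 31 passed in either direction, against 1882 of all 5019 genes. The same 12 were called with edgeR, and 11 with DESeq2, without rpb8 (adjusted p = 0.132). By enzyme these were 4 of 7 Pol I genes, 1 of 7 Pol II genes, 2 of 10 Pol III genes, both genes shared by Pol I and Pol III and 3 of the 5 common genes. The median change was -0.33 for Pol I, -0.09 for Pol II, -0.03 for Pol III, -0.42 for the 2 genes shared by Pol I and Pol III and -0.26 for the common genes, beside 0.01 over all genes tested. The differences were small, and 1 passed 1.5-fold (background 4.52%).

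That gene was rpc37, whose budding yeast counterpart works with that of rpc53 in termination by Pol III. It gave 402 and 476 normalized reads in treated Δtop1, against 657 and 715 in treated WT, a log2 change of -0.65 ± 0.11 (adjusted p = 0.00843), while untreated Δtop1 gave 807 and 751, against 849 and 819 in untreated WT. It was called lower in treated Δtop1 under every alternative tried, with changes between -0.77 and -0.50. rpc40 was lower by 0.50 ± 0.10 (1716 and 2005 in treated Δtop1, against 2527 and 2718 in treated WT; adjusted p = 0.0152) and rpa12 by 0.48 ± 0.12 (572 and 586 in treated Δtop1, against 752 and 870 in treated WT; adjusted p = 0.0256). ker1, rpa43, rpc10, rpc19, rpa49, rpb5, rpb7, rpc53 and rpb8 followed, between -0.43 and -0.26. For each of the 12, both treated Δtop1 libraries were below both treated WT libraries. The genes of the Pol III trimer lay between -0.06 and 0.00.

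The number of genes called between the treated strains rested on the scaling and on single libraries. With libraries set to the same total, 2 genes were lower (rpc37 and rpc40, beside 8.09% of all genes) and 3 were higher (nuc1, rpb2 and rpc1, beside 29.9%) in treated Δtop1. Without the treated Δtop1 replicate 1, rpc37 alone was called. Without the treated WT replicate 1 or replicate 2, 8 and 7 genes were called lower, and without either untreated Δtop1 replicate, 8. In treated Δtop1, long genes also stood higher relative to short genes than in treated WT. The median log2 deviation of 776 genes of at least 3000 bases minus that of 950 genes under 1000 bases was 0.12 and -0.04 in treated Δtop1, against -0.26 and -0.25 in treated WT. In the untreated groups it was 0.16 and 0.11 in Δtop1, against -0.11 and 0.12 in WT. Of the 31 genes, the long nuc1 and rpc1 were the highest in treated Δtop1 relative to treated WT (0.33 ± 0.16 and 0.25 ± 0.12), and neither passed the test. The other members of at least 3000 bases lay on both sides of 0: rpc2 at 0.20, rpb2 at 0.10, rpb1 at 0.09, rpa2 at -0.10 and rpb3 at -0.14. Lengths are those of annotated transcripts, and that of rpb3 is 4014 bases, of which 894 are coding. The cause of the tilt was not tested. With the trend on length removed from every library, an alternative chosen after seeing the data, 12 genes were again called lower, with rpb3 in place of rpb8.

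**Figure D4:**
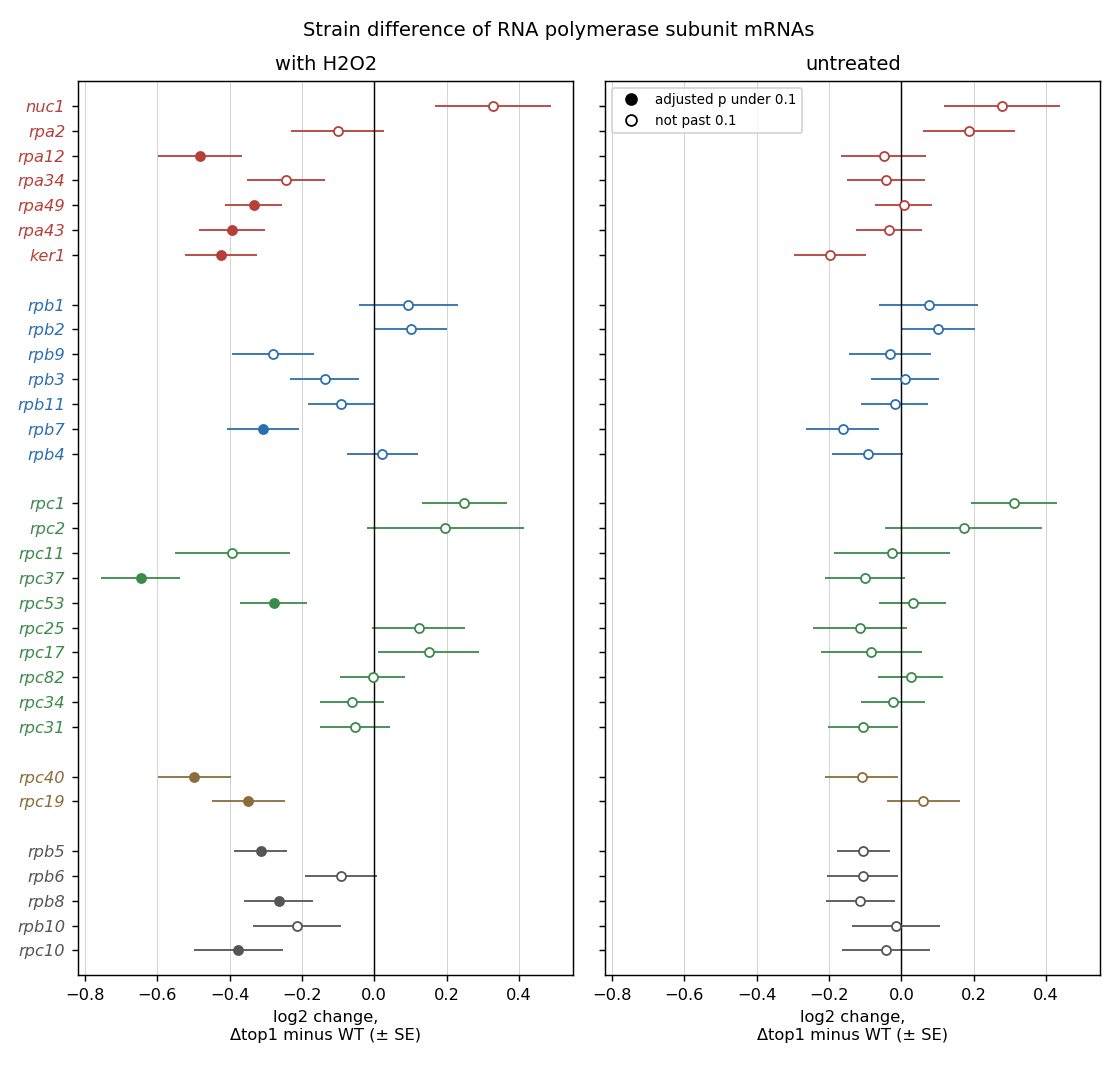
Log2 change of Δtop1 relative to WT (x axis, with its SE, n = 2 libraries per group) for each of the 31 genes, with H2O2 (left) and untreated (right). Filled points passed an adjusted p of 0.1: 12 of 31 on the left, all below 0, against 0 on the right. On the left, 2 of the 12 stay below 0 past the threshold when libraries are set to the same total.

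Whether a gene's response to H2O2 differed between the strains was tested as the interaction of strain and treatment. None of the 31 genes passed with limma, edgeR or DESeq2 (background 3.96% with limma). At an unadjusted p under 0.05 there were 7 of the 31 with limma (against 992 of all 5019 genes), 7 with edgeR and 6 with DESeq2. rpc37 had the largest difference, -0.55 ± 0.16 (unadjusted p = 0.00758, adjusted p = 0.128), followed by rpa12, rpc19 and rpc40 at -0.43 ± 0.17, -0.41 ± 0.14 and -0.39 ± 0.14. Without the treated Δtop1 replicate 2, rpc37 was called, at -0.67 (adjusted p = 0.0756).

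Basal factors, which bring each enzyme to its promoters, were measured beside the subunits. The Pol III list also held maf1, a repressor of Pol III, which stays in its counts and medians. tbp1, the TATA-binding protein, was counted in the Pol II list alone. Counts of the factors stand beside 34.9% of all genes lower and 35.9% higher in Δtop1, and 35.6% lower and 36.4% higher in WT. Of 7 Pol I factors, 4 were lower and 1 higher in each strain. rrn3, which joins Pol I to its promoter, was the only one past 2-fold, in Δtop1, at -1.18 with -0.81 in WT. Of 9 Pol III factors tested, 6 were lower in Δtop1 and 7 in WT, with falls past 2-fold in WT for bdp1 (-1.01) of TFIIIB and for sfc3 (-1.29) and sfc6 (-1.14) of TFIIIC, and 1 was higher in each strain. That one was maf1, the repressor of Pol III, which gave 1125 and 1126 normalized reads in treated Δtop1 against 406 and 412 in untreated Δtop1, and 1323 and 1185 in treated WT against 412 and 413 in untreated WT. It rose by 1.46 in Δtop1 and by 1.60 in WT, with no overlap. Of 20 Pol II factors, 11 were higher and 4 lower in Δtop1, and 12 were higher and 5 lower in WT. tfb6 of TFIIH rose by 1.89 in Δtop1 and by 1.37 in WT. sua7, which is TFIIB, rose by 0.85 in Δtop1 and by 1.22 in WT, and tfg1 of TFIIF by 1.02 in Δtop1 and by 0.95 in WT. The median change of the Pol I factors was -0.40 in Δtop1 and -0.24 in WT, that of the Pol III factors -0.72 in Δtop1 and -0.47 in WT, and that of the Pol II factors 0.42 in Δtop1 and 0.40 in WT. With libraries set to the same total, the Pol II factors split into 11 higher and 6 lower in Δtop1 and into 7 higher and 8 lower in WT (all genes 26.9% higher and 45.8% lower in Δtop1, and 21.3% higher and 56.2% lower in WT), while maf1, tfb6, sua7 and tfg1 stayed above 0 in both strains.

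The list drawn up as assembly and elongation factors included elf1 and rtf1, which are annotated otherwise and stay in its counts and medians. As a list, its genes were called in shares near or under those of all genes on the deposited scale. Of 19 measured, 6 were lower (31.6%, against 34.9% of all genes) and 6 higher (31.6%, against 35.9%) in Δtop1. In WT, 6 were lower (31.6%, against 35.6%) and 5 higher (26.3%, against 36.4%). Their median was 0.05 in Δtop1 and -0.02 in WT. With libraries set to the same total, 9 were lower (47.4%, against 45.8%) and 3 higher (15.8%, against 26.9%) in Δtop1. In WT, that scaling gave 13 lower (68.4%, against 56.2%) and 1 higher (5.26%, against 21.3%). Past 2-fold on the deposited scale were prf1 of the Paf1 complex, which rose by 1.40 in Δtop1 and 1.41 in WT, and elf1. The fall of elf1 was 1.14 in Δtop1 and 1.05 in WT, and it is annotated in fission yeast as an AAA family ATPase rather than an elongation factor. rtf1, listed by its budding yeast name, is annotated as a Pol I termination factor in fission yeast, and changed by -0.91 in Δtop1 and -0.84 in WT.

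In the assembly ASM294v3 the 31 genes were spread over all 3 chromosomes, and none lay within 100 kb of a chromosome end, the nearest being rpc37 at 136803 bases. All 12 genes of Pol II, the 5 common ones included, had an annotated intron, against 7 of the 19 genes found only in Pol I, Pol III or both, and 48.4% of 5129 genes in the file. Among those 19, the 7 genes with an intron and the 12 without had the same median change in WT after H2O2, -0.89 in each set. The same split was not made in Δtop1. No Pol II gene was without an intron, so intron and enzyme could not be told apart for the Pol II genes. Transcripts of 2 members overlapped a protein-coding gene on the same strand and those of 8 overlapped one on the opposite strand. The strand setting of the counting is not given in the sources used here, so reads of such pairs cannot be told apart with certainty.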

How the data were processed

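Poly(A) RNA of 8 libraries was sequenced on an Illumina HiSeq as single reads from stranded libraries. The paper's methods name FastQC 0.11.9, Salmon 1.2.1 on the ASM294v2 transcriptome and DESeq2 1.24.0, while the submitters' processing notes list FastQC, Trimmomatic, STAR, HTSeq and DESeq2 with ASM294v2. The authors deposited a signal per gene and library, the reads divided by a size factor, with replicates kept apart. In each library 5164 of 5165 values (99.98%) were whole multiples of 1 read within 0.01 reads, 1 read being worth 0.815 to 1.24. Every column of values belonged to a sample.

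The test was limma 3.58.1 in R 4.3.3 on log2(value + 1), which understates changes of low genes, fitted over all 8 libraries with 4 group means and variances moderated towards a trend, for genes of mean at least 10. Calls needed an adjusted p under 0.1, and those by size also 2-fold, or 1.5-fold between the treated strains. On the recovered reads, edgeR 4.0.16 and DESeq2 1.42.0 called 3621 and 3467 genes after H2O2 in WT, 3565 and 3396 in Δtop1, 30 and 60 between untreated strains, 1580 and 1495 between treated strains, and 192 and 372 in the interaction. The fits were tested on simulated data. Other pseudocounts (0.5 and 5), count minimums (none and 50), scalings (same total, same upper quartile, quantiles), no trend, a replicate block, an adjusted p of 0.05 and each library left out were tried.

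Members and lists were chosen with earlier results of these data known. Given in full were members past the fold limits in any comparison, the largest and second-largest subunits, and the member of each class with the smallest change, with companion genes only where past 2-fold. rtf1 and the other members named with values were added after their values were seen. Genes were matched by systematic name to ASM294v3 (5129 of 5165), the build of every coordinate and sequence here. No coordinate was carried over from ASM294v2. The companion genes tfb3, gpn1, gpn3, bud27, rbs1 and ctr9 were not analysed here under those names, and sfc7 was below the minimum.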

Additional observations from a re-analysis of the deposited data

Results flagged for a closer look

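rpc53, the partner of rpc37 in Pol III, lay on opposite sides of its untreated level in the 2 strains after H2O2: both treated libraries were below both untreated ones in Δtop1 (1114 and 1133 normalized reads treated, against 1331 and 1240 untreated) and above them in WT (1464 and 1268 treated, against 1251 and 1264 untreated). The difference between the 2 responses was -0.31 ± 0.13 on the log2 scale (limma interaction, unadjusted p = 0.0455, adjusted p = 0.246), which did not pass. Set to the same total, the WT change was -0.26, on the same side as in Δtop1.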

How the results depend on the processing

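The number of members lower after H2O2 stayed within 1.5 times that reported under every alternative (21 to 24 in WT and 22 to 23 in Δtop1 with single libraries left out), and no Pol I or Pol III median changed sign. The scaling between libraries moved the values most. Past 2-fold lower were 16 genes in Δtop1 and 17 in WT with the same total, and 17 and 14 with the same upper quartile. The 1 gene higher, rpb2, was lost (0 called) in both strains at an adjusted p of 0.05 and with the same total or upper quartile. It was also lost without the variance trend, with edgeR and with DESeq2. With quantiles, rpb2 was called lower in both strains, and rpb9 was the 1 gene called higher, in WT alone (32.7% of all genes). In WT, 3 were higher with the length trend removed. With single libraries left out the number ranged from 0 to 1 in each strain.

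With the same total, upper quartile and quantiles, in that order, medians after H2O2 in Δtop1 were -1.54, -1.56 and -1.64 for Pol I, -0.21, -0.24 and -0.14 for Pol II, -1.65, -1.68 and -1.59 for the genes of Pol I and III, and -0.89, -0.91 and -0.91 for the common genes. In WT they were -1.42, -1.34 and -1.29 for Pol I, -0.28, -0.20 and -0.15 for Pol II, -1.43, -1.35 and -1.20 for Pol I and III, and -0.90, -0.82 and -0.79 for the common genes. Pol III medians were -1.09 and -1.11 in Δtop1 and -1.26 and -1.19 in WT with the same total and upper quartile. With the length trend removed, the Pol I median was -1.24 in Δtop1 and -0.86 in WT, and in WT that of Pol I and III was -1.09 (with edgeR -1.08) and that of the common genes -0.57. Pol II genes that crossed 0 and passed, or lost a call, in WT were rpb1 (-0.28 with the same total, -0.43 with quantiles), rpb2 (-0.16, -0.078 with the upper quartile, -0.32 with quantiles), rpb9 (-0.28), rpb3 (-0.23), rpb11 (-0.36, -0.28 with the upper quartile) and rpb7 (-0.29, -0.21 with the upper quartile), with rpc53 of Pol III at -0.26. In Δtop1, rpb2 was at -0.014 with the upper quartile and -0.19 with quantiles.

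Between the treated strains, the same total left 2 genes lower, 3 higher and 0 lower past 1.5-fold, and quantiles gave 2 higher. Medians with the same total were -0.18 for Pol I, 0.058 for Pol II, 0.12 for Pol III, -0.27 for Pol I and III and -0.11 for the common genes. With the upper quartile they were 0.013 for Pol III and -0.22 for the common genes, with quantiles -0.11 for Pol III, and with the length trend removed -0.20 for the common genes. Between the untreated strains, the Pol II median was -0.073 with the length trend removed and that of the common genes -0.15 with quantiles. Interaction medians (-0.29 for Pol I, -0.07 for Pol II, -0.03 for Pol III, -0.40 for Pol I and III, -0.20 for the common genes) were -0.12, 0.10, 0.14, -0.23 and -0.028 with the same total, and for the common genes -0.13 with the upper quartile, -0.13 with quantiles and -0.12 with the length trend removed. The cause of these shifts was not tested.

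With single libraries left out, 1 to 13 genes were lower, 0 to 2 higher and 0 to 2 lower past 1.5-fold between the treated strains, and 0 to 1 passed the interaction. Medians ranged in WT after H2O2 from -1.20 to -0.89 (Pol I), from -0.92 to -0.80 (Pol III) and from -0.63 to -0.47 (common), and in Δtop1 from -0.054 to 0.042 (Pol II), from -0.92 to -0.84 (Pol III) and from -0.82 to -0.66 (common). Between untreated strains they ranged from -0.035 to 0.042 (Pol II) and from -0.16 to -0.011 (common), and between treated strains from -0.39 to -0.27 (Pol I), from -0.065 to -0.00084 (Pol III) and from -0.33 to -0.21 (common). For the interaction they ranged from -0.36 to -0.18 (Pol I), -0.18 to 0.036 (Pol II), -0.16 to 0.024 (Pol III), -0.49 to -0.30 (Pol I and III) and -0.25 to -0.052 (common).

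Replicate numbers are not stated to mark a shared culture or day, and libraries with 1 number in different groups deviated together with r of 0.066 to 0.617 across genes. With a replicate block, 2 genes were higher after H2O2 in WT (38.7% of all genes), 15 were lower (22.3%) and 1 higher (23.5%) between the treated strains, and 4 passed the interaction (rpc19, rpa49, rpc40 and rpc37, between -0.55 and -0.34), 12.9% of the 31 against 17.5% of all genes. In the 250 bases before the gene start alone, GATGAG was found at 2 genes (6.45%, against 6.83% of windows). Precision is limited by the 2 libraries per group, with an SE of 0.07 to 0.22 for the H2O2 changes of the 31 genes.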
